A study of Mus musculus with 8 samples.

Results

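The polysome shift is the difference between genotypes in how a transcript is spread between light and heavy polysomes. For each gene, the log2 level in early (light) polysomes was subtracted from that in late (heavy) polysomes of the same lysate. The 2 values of mice with Mex3a deleted were then set against the 2 values of control mice. The question was whether loss of Mex3a moves transcripts along the gradient, and not whether their levels change. Of 21765 genes in the deposited table, 16097 with a mean of at least 1 TPM, a length-corrected share of each library's reads, were tested. All 8 libraries of the series entered, an early and a late library from each of 4 lysates of the main olfactory epithelium.

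Control mice (WT) carried Mex3a flox/flox or Mex3a flox/+ alleles, and their labels name no Cre. Conditional knockout mice (cKO) were Mex3a flox/flox and carried a Cre allele, so that floxed alleles were present in both genotypes. Tissue was treated with 100 µg/mL cycloheximide, which holds ribosomes on mRNA. About 42 fractions of 350 µL were taken from each sucrose gradient. Of each fraction, 50 µL was pooled into early (fractions 27 to 34) or late (fractions 35 to 42) polysomes. The genotype tag of 1 library, the early one of WT lysate 2, is that of cKO, while its title says WT. Its Mex3a level was 115.6 TPM, beside 97.41 TPM in the early library of WT lysate 1 and 13.87 and 19.80 TPM in those of the cKO lysates, and it was kept as WT. Neither the age of the mice nor the number of animals behind a lysate is given.

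Ribosomes load onto an mRNA one after another, and an mRNA with more ribosomes sediments further. How many fit depends on the length of the coding sequence and on the rates of initiation and elongation. Mex3a encodes an RNA-binding protein with paired KH domains and a RING finger, known from stem and progenitor cells. The olfactory epithelium renews its sensory neurons throughout life from basal progenitors, and each mature neuron makes large amounts of 1 odorant receptor that must pass through the endoplasmic reticulum.

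Read depth was inferred from the steps of the TPM values and lay between 7776792 and 12771079 reads per library, lowest in the late library of cKO lysate 2. The levels are shares of each library, so a movement of the whole mRNA pool between light and heavy polysomes was not measurable. Markers of mature neurons (10 of 10), immature neurons (9 of 9), globose basal cells (9 of 9) and sustentacular cells (8 of 8) were above 0 in every library, as the labelled tissue requires. In whole tissue, fewer cells of a type and less RNA per cell cannot be told apart.

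Among the 11254 genes with a mean of at least 100 reads per library, the shift lay between -0.31 and 0.31 log2 for the central 90%. The extremes were -0.87 and 0.77, so that 0 of 11254 genes differed by more than 1 log2, a doubling or halving of the late-to-early ratio. The 95% interval of the shift lay wholly within 1 log2 of no shift for 10741 of them (95.4%). Their median absolute shift, a difference of means over 2 lysates, was 0.12 log2. The median difference between single lysates was 0.19 in WT and 0.21 in cKO, and these are not on the footing of a difference of means.

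The count of 0 genes beyond 1 log2 rested on all 4 lysates. It was 64 without cKO lysate 1, 16 without WT lysate 2, 4 without cKO lysate 2 and 0 without WT lysate 1. With voom on inferred reads it was 1, Meg3, named here after its value was seen, at 1.02 log2 (SE 0.36). Meg3 is a long noncoding RNA.

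By limma, 1 of 16097 genes (0.00621%) passed an adjusted p of 0.05. At an unadjusted p under 0.05 were 427 genes (2.65%), of which 214 (1.33%) were higher and 213 (1.32%) lower in cKO. This count was 1263 (453 higher, 810 lower) without cKO lysate 1, 201 (101 higher, 100 lower) without WT lysate 1, and 1535 (9.54%) with the replicate number as a block. Voom gave 0 of 16085 at the adjusted threshold and 382 unadjusted (2.37%). The share at an unadjusted p under 0.05 fell with depth, from 10.6% of 697 genes under 10 reads to 0.872% of 2868 genes with at least 1000 reads. Precision followed depth as well. The median half-width of the 95% interval was 1.304 log2 under 10 reads, 0.82 from 10 to 100, 0.46 from 100 to 1000 and 0.39 from 1000 reads.

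**Figure D1:**
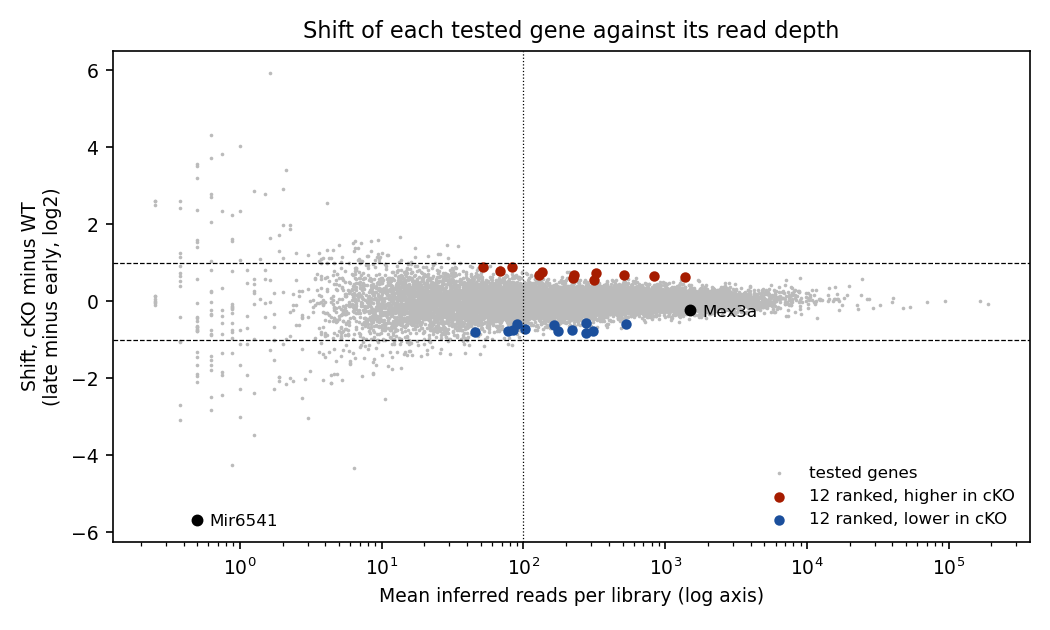
Shift of each tested gene (vertical axis, log2, cKO minus WT of late minus early) against its mean inferred reads per library (log axis), with points for 16097 genes. Dashed lines mark 1 log2 in each direction and the dotted line 100 reads, to the right of which 0 of 11254 genes lie beyond the dashed lines.

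The gene that passed was Mir6541, a microRNA gene of 110 nt on chromosome 14 (62865542 to 62865651, plus strand, GRCm38.p6). Reads were inferred at 1 each in the late libraries of both WT lysates and the early libraries of both cKO lysates. The other 4 libraries held 0. The inference takes the smallest whole numbers that fit, so the true count may be a multiple of 1. Its late-minus-early values were 2.84 and 2.78 log2 in WT against -2.81 and -2.94 in cKO, and the shift was -5.69 (SE 0.34, adjusted p = 0.0358 by limma). An inferred count of 1, known only up to a multiple, beside 0 in 4 libraries supports no fold. In voom the adjusted p was 1.0, and over all alternatives it ran from 0.000923 to 1.0. It was 0.974 without WT lysate 2, the lysate with the conflicting tag, and 0 genes then passed. The mature sequence from RefSeq (GRCm38.p6) is shown because this was the only call, with the seed, bases 2 to 8, in capitals.
mmu-miR-6541: cACAGGCAaggacuucucaag
The library protocol was for total RNA, and reads on this interval were not shown to come from the mature microRNA.

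Genes with enough reads in every library were ranked by the limma p of their shift, since none of them passed. Lysates of the genotypes did not overlap in 1814 of the 11413 genes eligible for the ranking (15.9%) with cKO above WT and in 1433 (12.6%) with cKO below WT. Over all tested genes these shares were 14.9% and 14.3%. The 12 first-ranked genes in each direction are given as a description, all with an adjusted p of 1.0. Their low p and their direction with a lysate left out follow from how they were chosen.

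Fzd2 encodes a Frizzled receptor for Wnt ligands. Its scaled TPM in WT lysates 1 and 2 was 21.9 and 19.6 in early and 23.1 and 21.3 in late polysomes. In cKO lysates it was 15.9 and 15.7 in early and 28.5 and 29.0 in late polysomes. The transcript was thus lower than WT in light and higher than WT in heavy polysomes of both cKO lysates, with no overlap. The shift was 0.73 log2 (95% interval 0.35 to 1.11, SE 0.16), on 232 to 382 reads per library, and the level averaged over both fractions differed by -0.0052 log2.

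Reep4 encodes an endoplasmic reticulum protein of the REEP family, which shapes the reticulum's membranes. It was at 17.3 and 21.4 scaled TPM in WT early and 14.6 and 18.2 in WT late polysomes. In cKO it was at 17.7 and 17.4 in early and 25.8 and 25.9 in late polysomes. Late-minus-early values were negative in both WT lysates (-0.23 and -0.22) and positive in both cKO lysates (0.52 and 0.54). The shift was 0.76 log2 (95% interval 0.37 to 1.14), on 108 to 167 reads.

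Lrrc47, a leucine-rich repeat protein gene, was at 59.9 and 57.9 scaled TPM in WT early and 54.5 and 63.9 in WT late polysomes. The cKO lysates had 43.7 and 47.6 in early and 70.1 and 74.0 in late polysomes. Its shift was 0.65 log2 (SE 0.16) on 660 to 1006 reads. The cKO libraries were thus the lowest of the early and the highest of the late libraries.

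Bckdhb, which encodes a subunit of the mitochondrial branched-chain ketoacid dehydrogenase, had a shift of 0.67 log2. Its late-minus-early values were -0.31 and -0.049 in WT against 0.47 and 0.51 in cKO. Fbxo10, for an F-box protein of a ubiquitin ligase, went from 0.30 and 0.49 in WT to 0.92 and 1.15 in cKO. It had the most reads of the 12 (797 to 1927). Ano8, of the anoctamin family, had values of 0.54 and 0.89 in WT against 1.29 and 1.48 in cKO. The other genes higher in cKO were Slc35g2 (0.89), Sbpl (0.89), Clic3 (0.79), Odf3b (0.67), Pdlim4 (0.61) and Moxd2 (0.55), all as shifts in log2. Sbpl, Clic3, Slc35g2 and Odf3b had fewer than 100 reads in their lowest library. In 5 of the 12, both WT values were below 0 and both cKO values above it. This was found in 142 of the 1814 eligible genes with cKO above WT without overlap, from which the 12 were taken by low p. Of the 12 genes lower in cKO, 2 had the reverse signs, as had 93 of the 1433 eligible genes with cKO below WT. The counts among the 12 are thus no separate support.

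Bex1, a small gene on the X chromosome expressed in neurons, ranked first among the genes lower in cKO. It was at 100.7 and 91.9 scaled TPM in WT early and 60.4 and 55.0 in WT late polysomes. In cKO it was at 98.5 and 97.5 in early and 40.6 and 37.6 in late polysomes. Early libraries of the genotypes overlapped, and late libraries did not. The shift was -0.57 log2 (95% interval -0.90 to -0.24, SE 0.14), on 92 to 417 reads.

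Zfp715, a zinc finger gene, was at 10.1 and 10.5 scaled TPM in WT early and 16.5 and 13.8 in WT late polysomes. The cKO lysates had 14.5 and 11.3 in early and 12.3 and 9.22 in late polysomes. Late-minus-early values were above 0 in both WT lysates and below 0 in both cKO lysates, with a shift of -0.75 (95% interval -1.24 to -0.27). Mettl6 encodes a transfer RNA methyltransferase. Its late-minus-early values were -0.42 and -0.25 in WT against -0.87 and -1.33 in cKO, a shift of -0.77 on 110 to 413 reads.

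The other genes lower in cKO included Eme1, a subunit of a structure-specific endonuclease (-0.78), Neil1, a DNA glycosylase (-0.82), Exo5, an exonuclease (-0.61), and Dctpp1, a nucleotide pyrophosphatase (-0.61). Each of these 4 had fewer than 100 reads in its lowest library. The remaining 5 were Glrx2, a mitochondrial glutaredoxin (-0.83), Dapl1 (-0.79), Tspan33, a tetraspanin (-0.76), Dusp19, a phosphatase (-0.74), and S100a11, a calcium-binding protein gene (-0.59). Glrx2, Dapl1, Tspan33 and Dusp19 also had fewer than 100 reads in their lowest library (68, 37, 43 and 28). The plot of the 24 genes shows the 4 lysate values of each.

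**Figure D2:**
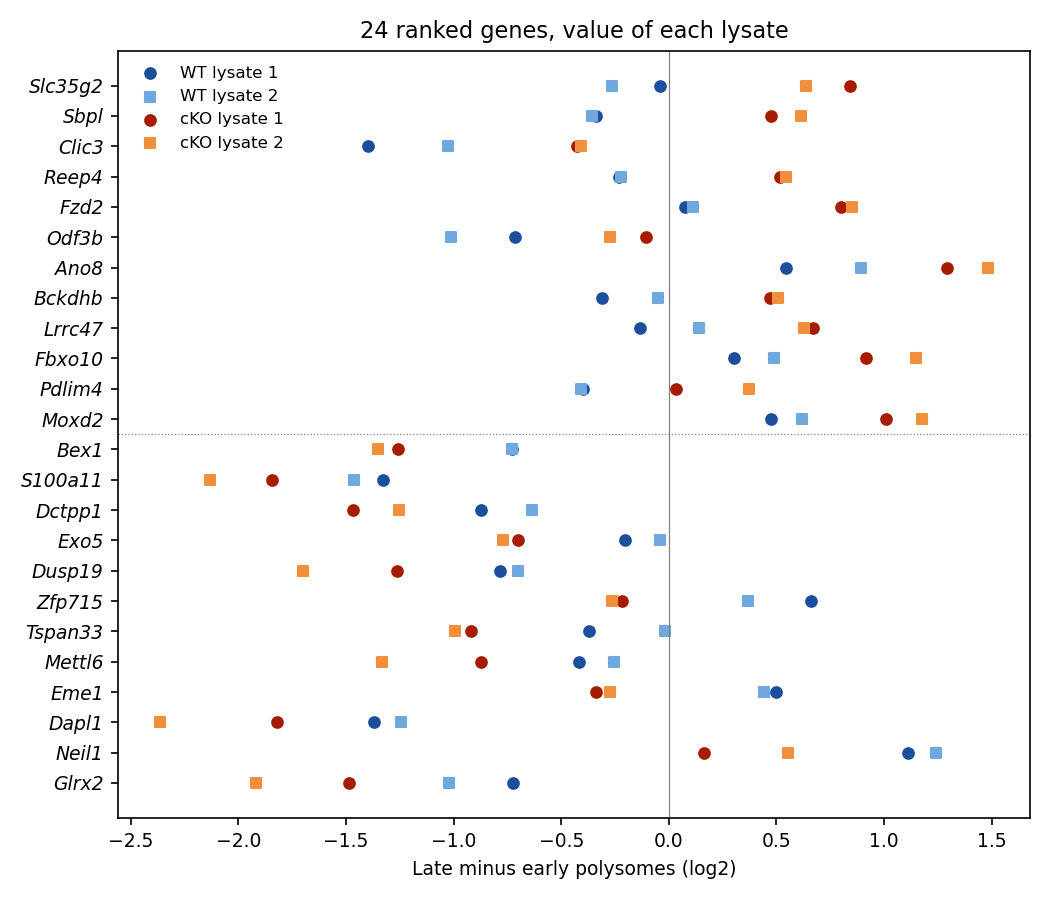
Late-minus-early value (horizontal axis, log2) of each lysate for the 12 first-ranked genes higher (above the dotted line) and 12 lower (below it) in cKO, with blue points for WT and red or orange points for cKO lysates. WT and cKO points do not overlap for any of the 24 genes, which was a condition of the ranking, and Fzd2 and Reep4 have the 2 lysates of each genotype close together.

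Coding sequences of the 12 genes lower in cKO had a median of 756 nt, and those of the 12 higher in cKO 1206 nt, beside 1428 nt over the 11413 eligible genes. A smooth trend on coding length was then removed within each lysate. Shifts were 0.50 to 0.94 log2 in the genes higher in cKO and -0.82 to -0.42 in those lower in cKO. All 24 remained at an unadjusted p under 0.05, which is no separate support, since they were chosen by low p on the same data.

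The bases around the start codon were read from the transcript with the longest coding sequence (GENCODE M21, GRCm38) for the first-ranked genes, since initiation begins there. Each sequence runs from 9 bases before to 9 bases after the start codon, with the start codon, the 3 bases before it and the base after it in capitals.
Sbpl: cagagcTTCATGAagtcttgg
Reep4: gctgtcAGGATGGtgtcctgg
Fzd2: gcggccAGCATGCgggcccgc
Bex1: ccaggaGTAATGGagtccaaa
Mettl6: gcaactACAATGGcttctttc
Eme1: aatgggTTGATGGctctaaga
The pattern ANNATGG or GNNATGG, read on the transcript strand at the annotated start only, was present in 7 of 11 genes higher and 5 of 12 genes lower in cKO. It was present in 43.8% of the 14162 tested genes with such a sequence.

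The Mex3 family encodes related RNA-binding proteins with KH domains. Mex3a itself was at 98.8 and 118.9 scaled TPM in WT early and 88.9 and 90.0 in WT late polysomes. In cKO it was at 14.6 and 21.3 in early and 11.0 and 13.2 in late polysomes. Its level was lower in every cKO library, and its late-minus-early values overlapped between genotypes (-0.15 and -0.40 in WT, -0.38 and -0.65 in cKO). The shift was -0.24 log2 (95% interval -0.67 to 0.18, adjusted p = 1.0 by limma). The remaining Mex3a transcripts were thus placed within 1 log2 of their position in WT.

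Mex3b had late-minus-early values of -0.27 and -0.47 in WT against -0.13 and -0.023 in cKO, a shift of 0.29 (95% interval -0.085 to 0.67). Mex3d had -0.42 and -0.49 in WT against -0.26 and -0.13 in cKO, a shift of 0.26 (95% interval -0.092 to 0.62). Mex3c had -0.45 and -0.70 in WT against -0.75 and -0.91 in cKO, a shift of -0.26 (95% interval -0.64 to 0.12). Lysates of the genotypes did not overlap for these 3 paralogs, a pattern shared by 29.1% of all tested genes. None of the 4 members had an unadjusted p under 0.05.

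**Figure D3:**
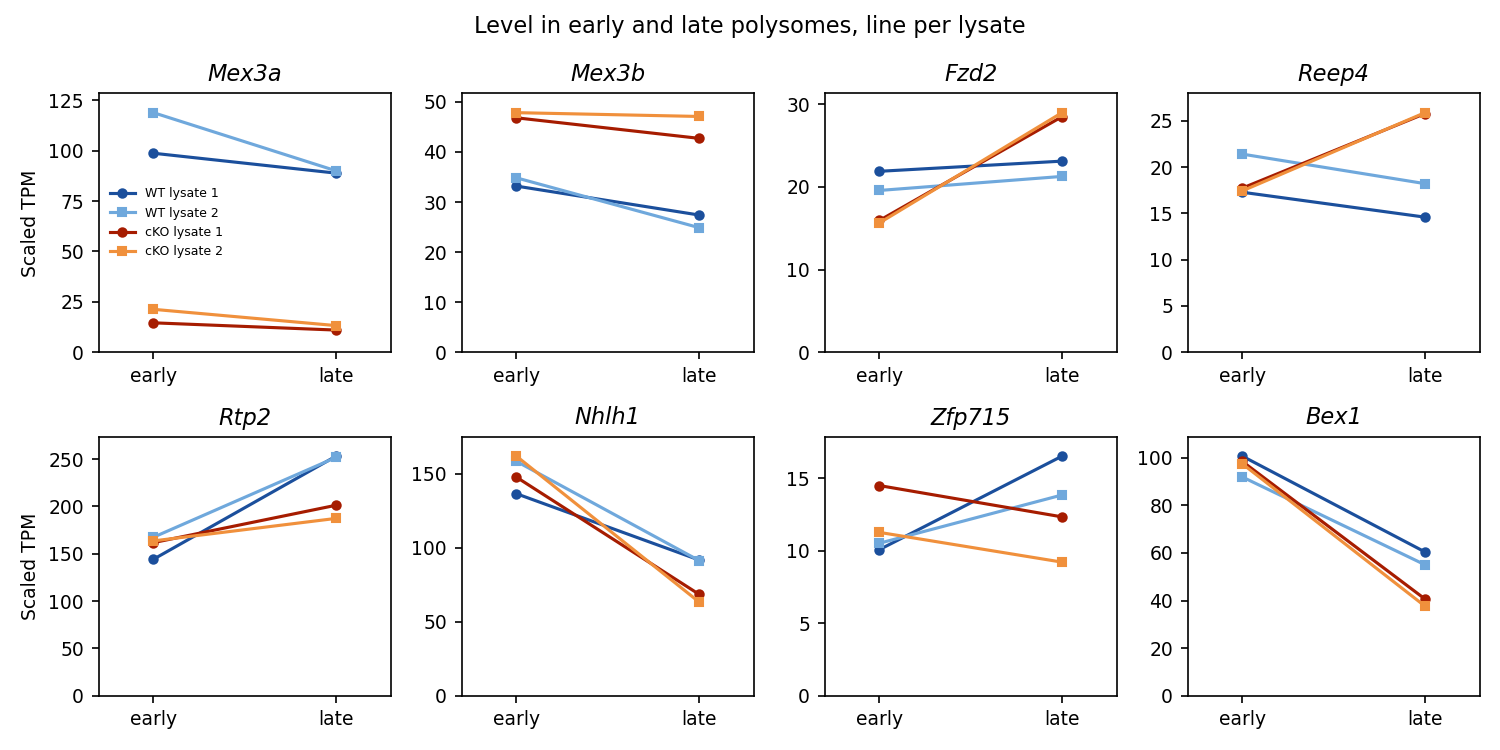
Scaled TPM (vertical axis, from 0) in early and late polysomes for 8 genes, with a line per lysate, blue for WT and red or orange for cKO. For Fzd2 and Reep4 the cKO lines are steeper than the WT lines, and for Mex3a all 4 lines fall while the cKO lines lie far below.

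In 31 gene lists, 0 members passed the adjusted threshold in either direction. The lists are described by their members' counts at an unadjusted p under 0.05 and by their medians, beside 2.65% and -0.0056 log2 over all tested genes. Over the alternatives the median took both signs in 24 of the 31 lists. Each list's counts cover the members with a mean of at least 1 TPM.

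Protein export from the endoplasmic reticulum was represented by 58 tested genes for translocation and vesicle coats. Of these, 0 had an unadjusted p under 0.05, and their median shift was -0.016 log2. Median late-minus-early values were -0.13 and -0.091 in WT against -0.056 and -0.050 in cKO lysates. Members ranged from -0.58 for Srp19, of the signal recognition particle, to 0.32 for Arcn1, of the COPI coat. Sec61a1, the channel of the translocon, had a shift of 0.041 (SE 0.18).

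The 22 chaperones of the endoplasmic reticulum had a median of 0.089 log2, with 15 above and 7 below 0 (48.9% of all tested genes were above 0), and 0 at an unadjusted p under 0.05. Hspa5 (BiP), the main chaperone of the compartment, had a shift of -0.082 (95% interval -0.51 to 0.34). The 23 genes of the unfolded protein and integrated stress response had a median of 0.015, with 0 higher and 1 lower in cKO at an unadjusted p under 0.05. Members ranged from -0.37 for Nupr1 to 0.43 for Atf3. Atf4, translated through upstream open reading frames, had late-minus-early values of -0.70 and -1.07 in WT against -0.86 and -1.19 in cKO, a shift of -0.14 (95% interval -0.63 to 0.35). Atf5, which olfactory neurons translate as a receptor is chosen, had a shift of -0.021 (95% interval -0.59 to 0.55). The genotypes overlapped for both.

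Helpers of odorant receptor export comprised 11 tested genes, with a median of -0.018. At an unadjusted p under 0.05 were Reep4, given above, and Rtp2, with shifts of opposite sign. No role of Reep4 in receptor export was shown here. Rtp2 encodes a protein that carries odorant receptors to the cell surface. It was at 144.2 and 167.5 scaled TPM in WT early and 253.2 and 251.9 in WT late polysomes. The cKO lysates had 161.8 and 163.6 in early and 201.3 and 187.4 in late polysomes. Its late libraries were lower in cKO without overlap, and the shift was -0.44 log2 (95% interval -0.82 to -0.068, adjusted p = 1.0 by limma).

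Rtp1, its paralog, was named after its values were seen. It had late-minus-early values of 0.73 and 0.56 in WT against 0.43 and 0.21 in cKO, a shift of -0.32 (95% interval -0.74 to 0.091). Lysates did not overlap here either, and 14.3% of all tested genes had cKO below WT without overlap.

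Of 1090 odorant receptor genes, 824 were tested, and their interval half-width had a median of 0.89 log2, against 0.50 over all genes. At an unadjusted p under 0.05 were 34 (4.13%), 9 higher and 25 lower in cKO. Their genes had a median depth of 27.9 reads. Among all 4146 tested genes with 10 to 100 reads the share was 3.93%, with a median shift of -0.044. The median shift of the 824 receptor genes was -0.13, and it ran from -0.21 to -0.036 over the alternatives. Median late-minus-early values were -0.060 and -0.25 in WT against -0.21 and -0.33 in cKO, so the lysates overlapped. Olfr2, the highest member with at least 5 scaled TPM in each group, had a shift of 0.72 on 50 to 87 reads, and Olfr17, the lowest, -0.73 on 39 to 153 reads. The 11 trace amine receptor genes had a median of 0.0046, with 0 at an unadjusted p under 0.05.

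Genes of odorant signalling (17 tested) had a median of 0.042 and 0 members at an unadjusted p under 0.05. Cnga4, a subunit of the cyclic nucleotide-gated channel, was the highest at 0.37 (95% interval -0.051 to 0.80). Adcy3, the adenylyl cyclase, had a shift of 0.27 (SE 0.24). Mature neuron genes (18) had a median of -0.10, with 7 above and 11 below 0, and Rtp2 was its single member at an unadjusted p under 0.05. The mature marker Omp had a shift of -0.098 (95% interval -0.85 to 0.65). The 16 immature neuron genes had a median of 0.013 and ranged from -0.22 for Stmn2 to 0.20 for Gng8.

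Among 21 globose basal and neurogenic genes the median was 0.048, and 2 transcription factor genes had an unadjusted p under 0.05. Nhlh1, a basic helix-loop-helix factor of differentiating neurons, was at 136.6 and 158.5 scaled TPM in WT early and 91.8 and 91.4 in WT late polysomes. The cKO lysates had 147.8 and 162.0 in early and 68.6 and 63.4 in late polysomes. Late libraries were lower in cKO, early ones overlapped, and the shift was -0.54 (95% interval -0.93 to -0.15). Insm1, a zinc finger factor of neuronal progenitors, had late-minus-early values of 0.13 and 0.026 in WT against 0.36 and 0.71 in cKO, a shift of 0.46 (95% interval 0.040 to 0.88). Neurod1, a factor of neuronal differentiation, had a shift of -0.035 (SE 0.14). Summed levels of the 9 globose basal markers were 684.1 to 738.6 scaled TPM in WT and 767.8 to 799.1 in cKO libraries, and the part of this difference in the shifts was not tested.

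The machinery of translation showed 0 of 51 translation factor genes at an unadjusted p under 0.05. Their median shift was -0.042, and members ranged from -0.24 for Eif4ebp1, an inhibitor of cap-dependent initiation, to 0.17 for Eif6. Eef2, the translocase of elongation, had a shift of 0.16 (SE 0.20), and Pabpc1, the poly(A)-binding protein, of -0.17 (SE 0.16). The 79 cytosolic ribosomal protein genes had a median of -0.15, with 13 above and 66 below 0 and 0 at an unadjusted p under 0.05. Their median late-minus-early value was -0.91 and -1.15 in WT against -0.89 and -1.54 in cKO. The cKO lysates thus lay above and below both WT lysates, and over the alternatives the median shift ran from -0.47 to 0.13. It was 0.13 without cKO lysate 2 and -0.47 without cKO lysate 1.

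Mitochondrial ribosomal protein genes (77) had a median of -0.040 and respiratory chain genes (88) of -0.094. At an unadjusted p under 0.05 were 0 of the former, and 2 higher and 2 lower of the latter. With the trend on coding length removed the medians were 0.042 and -0.0145. Both medians turned with a lysate left out. They were -0.19 and -0.30 without cKO lysate 1, -0.12 and -0.28 without WT lysate 2, 0.067 and 0.029 without WT lysate 1, and 0.075 and 0.085 without cKO lysate 2, in the same order of lists. Proteasome genes (37) had a median of 0.041, with 1 higher and 2 lower at an unadjusted p under 0.05. The 57 replication-dependent histone genes, whose mRNAs lack a poly(A) tail, had a median of -0.011, and it was 0.098 with the trend on coding length removed. Of these, 1 was higher and 1 lower in cKO at an unadjusted p under 0.05.

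Regulators of mRNA were described because MEX3 proteins act on RNA. The 17 genes of the CCR4-NOT complex and deadenylation had a median of -0.0059. Cnot11, a subunit of the complex, was the single member at an unadjusted p under 0.05, with a shift of 0.41 (SE 0.15). The 37 RNA-binding translation regulators had a median of -0.0064, and their members ranged from -0.29 to 0.42. Fxr2, a paralog of the fragile X protein, was the highest and the single member at an unadjusted p under 0.05. Its late-minus-early values were 0.54 and 0.79 in WT against 0.94 and 1.24 in cKO.

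Markers of the other cell types were also described. The medians were -0.0100 for horizontal basal (12), 0.10 for sustentacular (19), 0.0078 for gland (22), 0.00069 for microvillous (10) and -0.030 for ensheathing glia genes (10). For neutrophil and myeloid genes (17) the median was -0.0067, with 1 higher and 2 lower in cKO at an unadjusted p under 0.05. The higher one was C1qb, with a shift of 0.55 (SE 0.18) on 77 to 147 reads. The 2 lower ones were Stfa2 and Stfa3, stefins of neutrophils, and each had 0 reads in 1 cKO late library. Mup5, a lipocalin gene, was the single gland gene at an unadjusted p under 0.05, with a shift of -0.48 (SE 0.15). Summed levels of the 8 myeloid markers were 340.0 to 440.4 scaled TPM in WT early and 474.4 to 542.0 in cKO early libraries. Immature neuron sums were 4000 to 4110 in WT and 3710 to 3941 in cKO early libraries. In late libraries they were 3852 to 4091 and 3467 to 3582. Late sums were also higher in cKO for sustentacular and microvillous markers and lower for ensheathing glia, without overlap. Sums of mature neuron, horizontal basal and gland markers overlapped in both fractions. The part of these differences in the shifts was not tested. The other lists were regulators of receptor choice (20, median 0.050), neuronal cytoskeleton and granins (17, 0.074), axon guidance and sorting (24, -0.014), long RNAs that are not translated (17, -0.19) and red blood cell genes (3, 0.038), each with 0 members at an unadjusted p under 0.05.

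**Figure D4:**
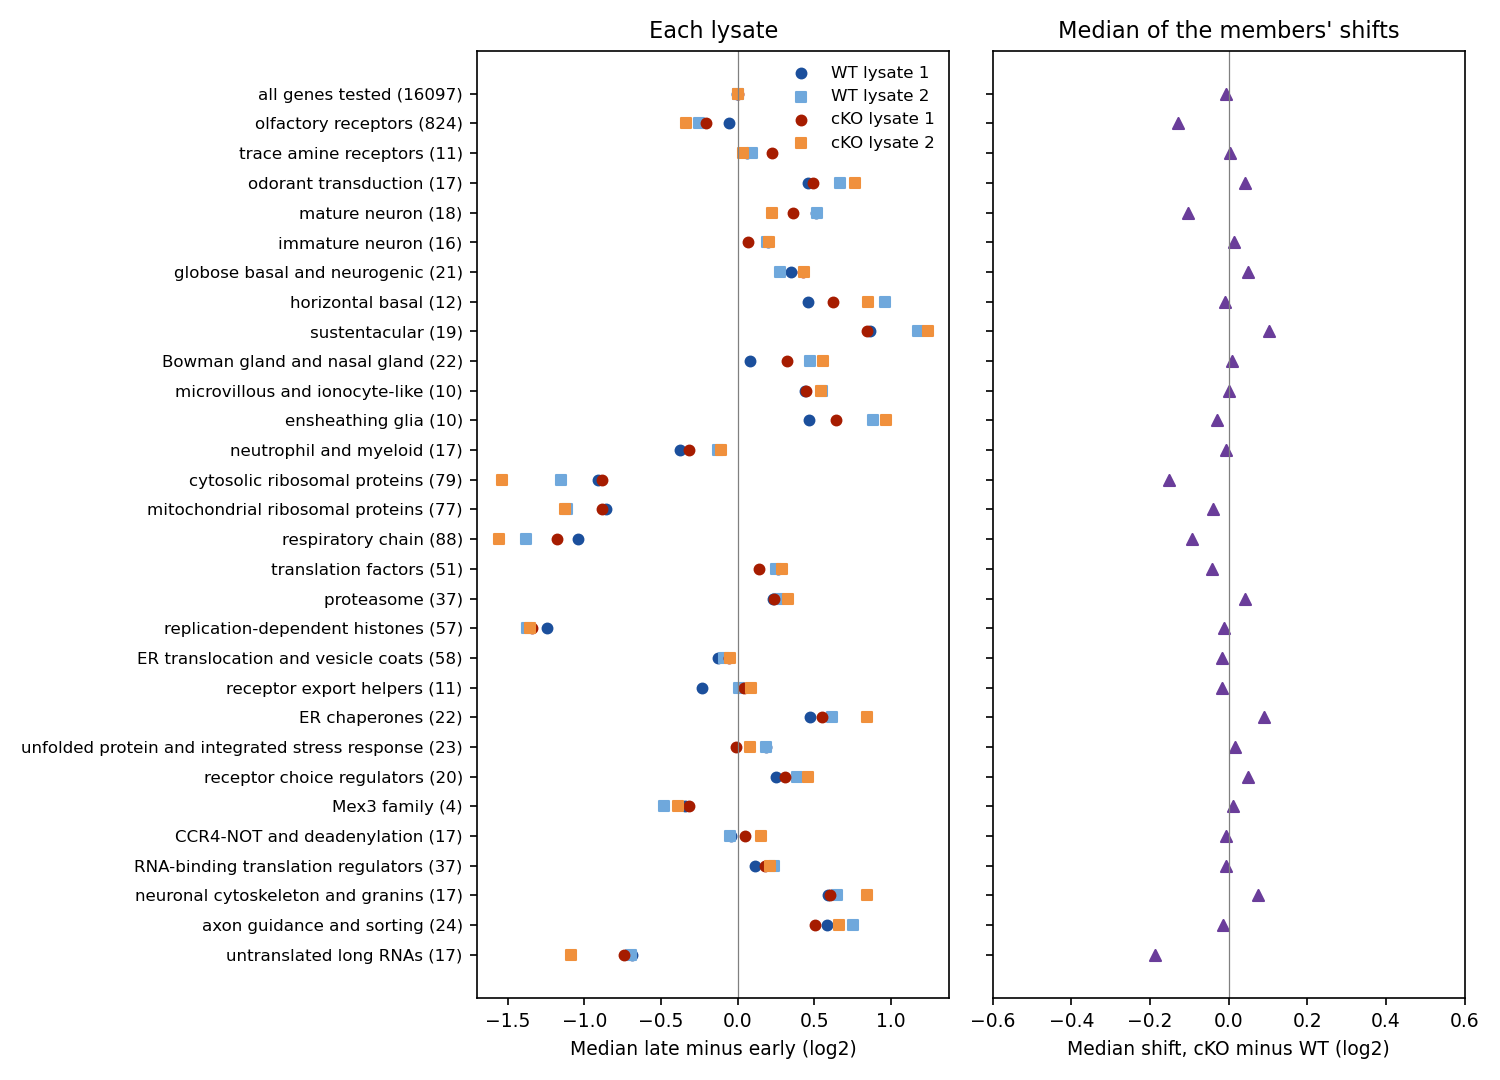
Left, median late-minus-early value (log2) of each gene list with at least 4 tested genes in each lysate, with the number of tested genes in brackets; right, the median of the members' shifts. Lists differ in position by over 2 log2, while list medians of the shift lie between -0.19 and 0.10.

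Genes reported earlier for a level change between genotypes were examined for their position. Mup4, a lipocalin gene, was at 172.3 and 159.5 scaled TPM in WT early and 112.1 and 124.0 in WT late polysomes. In cKO it was at 516.5 and 773.2 in early and 302.3 and 400.8 in late polysomes. Its level was higher in every cKO library, while its shift was -0.37 (95% interval -0.78 to 0.035). The gene 5430401F13Rik had a level difference of 1.44 log2 averaged over fractions and a shift of -0.39 (SE 0.31). Nefl, the light neurofilament gene, had a level difference of -1.76 and a shift of 0.19 (SE 0.28), on 13 to 176 reads.

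The width of the late-minus-early distribution was described for each lysate. Its SD across the 11254 deeply read genes was 0.60 and 0.78 log2 in WT lysates 1 and 2, and 0.65 and 0.87 in cKO lysates 1 and 2. Lysates numbered 2 were thus wider than those numbered 1 in both genotypes, and the cKO lysate was wider than the WT lysate of the same number in both cases. The labels do not say that a number pairs lysates, and the test was not paired. The means were 0.69 in WT and 0.76 in cKO (exact permutation test, two-sided p = 0.667, n = 2 lysates each, where 0.333 is the smallest p possible).

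The slope on coding length followed the same order, and was steeper in cKO within each number. Late-minus-early values rose by 0.34 and 0.45 log2 per doubling of coding length in WT lysates 1 and 2 and by 0.37 and 0.50 in cKO lysates 1 and 2 (exact permutation test, two-sided p = 0.667, n = 2 each). Among the 1468 genes with the shortest coding sequences (median 417 nt) the median value was -0.91 and -1.22 in WT against -1.004 and -1.35 in cKO, and the median shift was -0.14. The difference between cKO and WT was -0.11 for lysates numbered 1 and -0.18 for those numbered 2. The WT lysates lay further apart than this in the same bin.

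In the bin with a median of 2172 nt the median shift was 0.042, and in that of the longest sequences (4558 nt) -0.0077. At an unadjusted p under 0.05, the shortest bin held 19 genes higher and 45 lower in cKO, and the bin at 2172 nt 16 and 3. These counts followed the medians of the bins. With the trend on coding length removed within each lysate, 0 genes passed the adjusted threshold and 599 of 14672 (4.08%) had an unadjusted p under 0.05, 331 higher and 268 lower.

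**Figure D5:**
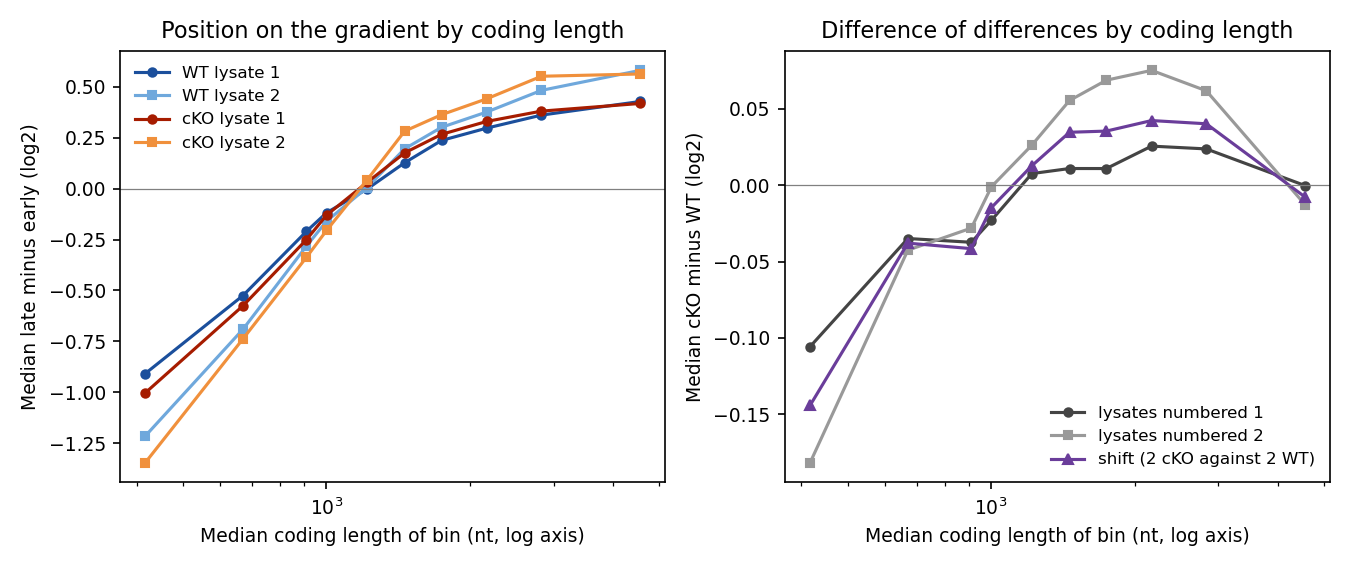
Left, median late-minus-early value (log2) in 10 equal bins of coding length (log axis, nt) for each lysate; right, the median difference between cKO and WT in the same bins, for lysates of each number and for the shift over all 4. The curves at left pass 0 near 1218 nt, and the shortest bin is the lowest in each curve at right.

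Position itself was shared closely by the lysates. Across the 11254 genes, late-minus-early values of any 2 lysates correlated at r = 0.92 to 0.96, a description over genes that share libraries and are not independent replicates. The difference between cKO and WT lysates numbered 1 and that between those numbered 2, which have no library in common, correlated at r = 0.20, and 59.1% of genes had the same sign in both. Across all 16097 genes these values were 0.026 and 56.6%.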

How the data were processed

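RNA from early and late polysomes of 4 olfactory epithelium lysates, 2 WT and 2 cKO, was sequenced. Titles gave groups and replicate numbers, and library names gave the lysate. Per the file, the authors deposited TPM values, 1 column per library, each summing to 1000000. The submitters' processing notes list FastQC, cutadapt, STAR, DESeq2 and mm10, without roles or versions. The counting method and annotation are not given in the sources used here. The design text speaks of sorted cells of transgenic mice, whereas the labels of these samples describe tissue lysates. The Cre line is not reported here.

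TPM was divided by median-ratio factors (0.9313 to 1.062), and log2(scaled TPM + 1) was fitted with limma 3.58.1 in R 4.3.3 for the 16097 genes with a mean TPM of at least 1. Lysate was a fixed term, and moderation used a mean-variance trend. The tested coefficient was late minus early in cKO minus that in WT. Two-sided p-values were adjusted with the Benjamini-Hochberg method over all tested genes, with a threshold of 0.05, and intervals cover 95%. Fold changes on this scale understate those of low genes.

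Whole reads were inferred from TPM steps for 19783 genes (tolerance 0.001 reads) and gave between 7776792 and 12771079 reads per library. Each gene received the smallest whole numbers that fit, so its true counts may be a common multiple of these. The inferred reads describe depth and served the voom alternative. Coding lengths and start codons came from the longest coding sequence in GENCODE M21 (GRCm38), found for 91.1% of tested genes.

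Genes named were Mex3 family members, genes past the threshold, the 12 highest-ranked in each direction by unadjusted p, the extremes of each list, and 3 genes with an earlier reported level change. Meg3, Rtp1, Sec61a1, Hspa5, Atf4, Atf5, Adcy3, Omp, Neurod1, Eef2, Pabpc1, Stfa2 and Stfa3 fall outside this rule and were chosen after their values were seen. The ranking required scaled TPM of at least 5 in each group, at least 20 reads in each library, lysates that did not overlap and a symbol that was no placeholder. Members and lists were chosen with earlier results of these data known. Alternatives covered pseudocounts, filters, scaling, trend, voom, pairing, coding length and leaving out each lysate. Scripts were tested on simulated data. Date-like symbols, as spreadsheets make them, stand in 27 rows, and none was named. No label says whether lysates came from separate animals, so p-values measure the spread between these lysates.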

Additional observations from a re-analysis of the deposited data

Results flagged for a closer look

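Mir6541 is listed because its late-minus-early value differed between genotypes by the test of the difference itself, with a shift of -5.69 log2. Its inferred count was 1 read at most in any library, the smallest number that fits. The genes of the CCR4-NOT complex and deadenylation are listed because their median late-minus-early value was below 0 in both WT lysates (-0.043 and -0.050) and above 0 in both cKO lysates (0.047 and 0.15). The means of these medians differed by 0.14 log2, while the median of the members' own shifts was -0.0059, so the 2 summaries differ in sign. The difference for this list was not tested.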

How the results depend on the processing

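The count of 1 gene past the adjusted threshold was 0 with a pseudocount of 0.1 (424 at an unadjusted p under 0.05), with any gene above 0 tested (669), with TPM averaging at least 5 (301), with 10 inferred reads on average (448), with voom (382), and with the trend on coding length removed (599). Mir6541 could not pass in 3 of these, since it lay under the filters on 5 TPM and 10 reads and has no coding length. Leaving out each lysate in turn gave 0 to 9 genes. The 7 called without cKO lysate 1 and the 9 without cKO lysate 2 all had under 100 reads on average. The number beyond 1 log2 among genes with at least 100 reads was 0, 1 with voom, and 0 to 64 with a lysate left out. Such fits leave 1 lysate in a genotype, which is assumed to vary like those of the other genotype.

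WT and cKO lysates of the same replicate number also have consecutive numbers in their library names, which does not say that they were paired. Their deviations correlated at 0.191 across all genes and at 0.512 across those with at least 100 reads. With the number as a replicate block, 0 genes passed and 1535 had an unadjusted p under 0.05. With no replicate block for the lysate, the 4 groups gave 1 gene and 459 unadjusted.

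Directions turned for 12 of 85 named genes. With a lysate left out, shifts ran from -0.28 to 0.38 for Slc4a1, -0.069 to 0.15 for Alas2, -0.013 to 0.52 for Rps4l, -0.55 to 0.026 for Manf, -0.0023 to 0.57 for Ina, -0.19 to 0.60 for Gng8, -1.22 to 1.72 for Snhg6, -0.58 to 0.084 for Gng13, -1.24 to 0.027 for Mrpl33, -1.69 to 0.27 for Atp5k, -0.49 to 0.043 for Msi2 and -0.11 to 0.50 for Nefl. With the coding length trend removed the shift of Alas2 was -0.0093. List medians moved by more than the spread between lysates in 25 comparisons and by less in 470. The causes were not tested. At 100 reads or more the unadjusted 95% interval had a median half-width of 0.44 log2. Shifts up to 0.87 in size did not pass the adjusted threshold at this depth. The size that could pass depends on each gene's error and is not given here.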
